A study of Mus musculus with 10 samples.

Results

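The genes described here are 40 type I interferon-stimulated genes of the mouse, written down from general knowledge of the interferon response at a time when earlier results of these data were known. They are 40 of the 26146 genes with counts, and all 40 were among the 14165 genes that passed the filter on low counts and were tested. RNA was sequenced from hematopoietic stem cells (HSCs), sorted from bone marrow as lineage-negative Sca1+ Kit+ CD48- CD150+ cells, of 5 WT and 5 KO mice, with 1 library per mouse. The WT mice carried floxed Cited2 alleles without Cre (named Cited2CTL in the study), and the KO mice carried the same alleles with Vav-iCre (Cited2CKO). Both genotypes were C57BL/6J and 8 to 12 weeks old. Vav-iCre is active in blood cells of all kinds and from before birth, so the sorted HSCs came from marrow in which other blood cells had lost Cited2 as well.

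Type I interferons are cytokines that signal through a receptor of 2 chains, Ifnar1 and Ifnar2, and the kinases Jak1 and Tyk2. These activate Stat2, which in a complex with Irf9 binds the interferon-stimulated response element (ISRE) in the promoters of many genes whose products restrict viruses at each step of infection. Acute interferon drives dormant HSCs into division and prolonged exposure impairs them. Stem cells also hold some of these gene products at a high level without interferon. Many earlier deletions in HSCs used Mx1-Cre, a transgene that is itself switched on by interferon, whereas Vav-iCre needs no interferon. Cited2 encodes a transcriptional co-regulator that binds the coactivator CBP. The comparison of the genotypes therefore asks whether the interferon programme of resting HSCs differed when Cited2 was deleted.

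Library totals were between 3058690 and 4548795 counts in WT and between 3500215 and 4315029 in KO. Levels are given as CPM, read counts scaled to the TMM-normalized total of each library. The deleted gene was examined first. Cited2 was between 101 and 222 CPM in the WT libraries, and 3.80, 4.21, 5.00 and 8.30 CPM in KO1, KO2, KO4 and KO5. The library labelled KO3 had 120.1 CPM of Cited2 (508 counts), within the WT range and against its label. It was kept in its labelled group, and differences between the genotypes are also given without it for the members as a set and for several members. With this library kept, Cited2 itself had a log2 fold change of -2.51 and was not called (adjusted p = 0.328, quasi-likelihood F test). A member that is not called may therefore still differ in the other KO libraries. The summed level of 10 HSC identity genes was between 2049 and 2313 CPM in WT and between 1842 and 2085 CPM in KO, where the library labelled KO3 was the lowest. Of 10 macrophage and monocyte genes, all were detected, and their summed level was between 314 and 341 CPM in WT, 440, 461, 417 and 428 CPM in KO1, KO2, KO4 and KO5, and 308 CPM in the library labelled KO3. Lyz2 and Ms4a6c made up most of this sum. Lyz2 did not rise with it, between 209 and 263 CPM in WT and between 197 and 240 CPM in KO. Ms4a6c was between 42.0 and 70.9 CPM in WT, 146, 134, 129 and 162 CPM in KO1, KO2, KO4 and KO5, and 56.5 CPM in the library labelled KO3. The other 8 genes of that list reached at most 44.0 CPM (Vcam1 in KO2), and Adgre1, C1qa, Csf1r and Cd14 at most 10.1 CPM in any library. A neutrophil list reached 745 CPM in WT5 against 188 to 317 CPM in the other WT libraries, and 475 CPM in KO5 against 148 to 292 CPM in the other KO libraries. Of 3 genes that mark cells outside the sorting gate, Cd48, the surface protein whose absence the gate requires, was 21.7, 17.9, 26.5, 14.4 and 27.4 CPM in WT1 to WT5 and 56.1, 45.3, 38.5, 44.4 and 60.8 CPM in KO1 to KO5. For Cd48, all KO libraries, the library labelled KO3 included, lay above all WT libraries. Flt3 of the same list tended the other way, between 99.5 and 146 CPM in WT and between 84.9 and 104 CPM in KO. Il7r was at most 14.1 CPM in any library. The summed level of the 3 genes overlapped, between 125 and 173 CPM in WT and between 135 and 169 CPM in KO. Cd48 was the only gene of the 10 marker lists called different (log2 fold change 1.18, SE 0.20, adjusted p = 0.0264, quasi-likelihood F test). Its adjusted p was 0.175 with an offset for GC content and length of genes, 0.101 with that offset and the replicate block, and between 0.0626 and 0.105 without any 1 of WT1, WT2, WT4, KO1, KO2 or KO5, with log2 fold changes between 1.05 and 1.29 in all settings. In sorted cells of this kind, a change in the share of a cell type and a change in RNA per cell cannot be told apart, and the part of these markers in the results was not tested.

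To show what the members share in sequence, the 38 promoters of 31 of the 40 genes were searched, those found in the RefSeq table of GRCm38.p6, from 250 bases before to 50 bases after the start site. The ISRE core was searched as GAAANNGAAA and the core of the gamma-activated site as TTCNNNGAA, both on both strands. Some genes have several promoters in the table. The ISRE core was found in at least 1 promoter of 16 of the 31 genes (51.6%), against 723 of 18294 genes with a promoter in the table (3.95%). Counted by promoter, it was in 17 of 38 (44.7%), against 3.39% of all 22084. The gamma-activated core was found for 10 of the 31 genes (32.3%, against 9.02%) and in 10 of their 38 promoters (26.3%, against 7.8%). Of 25 ISRE matches in the members, 9 overlapped another ISRE match and 2 overlapped a match of the other motif. These letters are a description of the windows and not evidence of binding in these cells. The 160 bases before the start site of 5 members with a match are printed 5′ to 3′ on the gene's strand, because these genes serve as standard readouts of the response, with the bases of each ISRE match in capitals.
Isg15: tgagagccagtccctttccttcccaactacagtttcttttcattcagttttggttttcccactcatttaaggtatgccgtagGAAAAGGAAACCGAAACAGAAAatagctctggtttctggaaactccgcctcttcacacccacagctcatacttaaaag
Ifit1: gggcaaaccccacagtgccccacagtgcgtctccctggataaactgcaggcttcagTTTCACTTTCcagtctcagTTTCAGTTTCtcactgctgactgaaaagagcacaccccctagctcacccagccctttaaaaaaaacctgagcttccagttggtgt
Ifit3: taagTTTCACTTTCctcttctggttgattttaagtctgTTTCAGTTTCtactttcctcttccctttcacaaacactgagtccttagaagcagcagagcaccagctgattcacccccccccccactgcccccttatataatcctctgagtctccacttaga
Rsad2: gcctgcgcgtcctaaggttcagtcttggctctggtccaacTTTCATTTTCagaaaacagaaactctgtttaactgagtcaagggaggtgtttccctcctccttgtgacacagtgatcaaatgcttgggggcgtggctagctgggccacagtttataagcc
Oas1a: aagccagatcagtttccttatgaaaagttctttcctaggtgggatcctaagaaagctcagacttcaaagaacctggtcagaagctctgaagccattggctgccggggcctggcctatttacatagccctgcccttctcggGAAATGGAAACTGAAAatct
These windows are chr4:156200819-156200978 (minus strand), chr19:34640729-34640888 (plus strand), chr19:34583369-34583528 (plus strand), chr12:26456453-26456612 (minus strand) and chr5:120907526-120907685 (minus strand) of GRCm38.p6. Isg15 carries 3 overlapping matches in 1 run. Ifit1 and Ifit3 each carry 2 separate matches, read from the opposite strand, and Oas1a carries 2 overlapping matches close to its start site. The members with an ISRE match had a median SD within genotypes of 0.22 on the log2 CPM scale and those with a promoter but no match 0.21, and their median log2 fold changes were 0.11 and 0.07.

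None of the 40 members was called different between the genotypes (adjusted p under 0.05 and a fold change above 20%, quasi-likelihood F test in edgeR, Benjamini-Hochberg adjustment), against 32 of the 14165 tested genes (0.226%). By sign alone, 31 members had a log2 fold change above 0 and 9 below it, where 51% of all tested genes lay above 0. Differences are log2 fold changes of KO against WT with their standard error (SE). Their median was 0.09 over the members and 0.01 over all tested genes. At an unadjusted p under 0.05, 6 members were higher in KO (Cxcl10, Mx2, Oas2, Parp14, Eif2ak2 and Xaf1), against 5.8% of all tested genes, and 2 were lower (Ifi35 and Irf1), against 7.08%. All KO libraries lay above all WT libraries for 1 member, Mx2, against 1.35% of all tested genes, and below them for 0 members, against 1.98%. Without the library labelled KO3, 34 members lay above 0, the median log2 fold change was 0.19, 10 members had an unadjusted p under 0.05 and 0 were called. Without WT3, the lowest WT library for these genes, 25 members lay above 0, against 50.6% of all tested genes, and the members' median was 0.04. The median was 0.14 without WT2, 0.16 without WT4 and 0.06 without either KO1 or KO2.

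**Figure D1:**
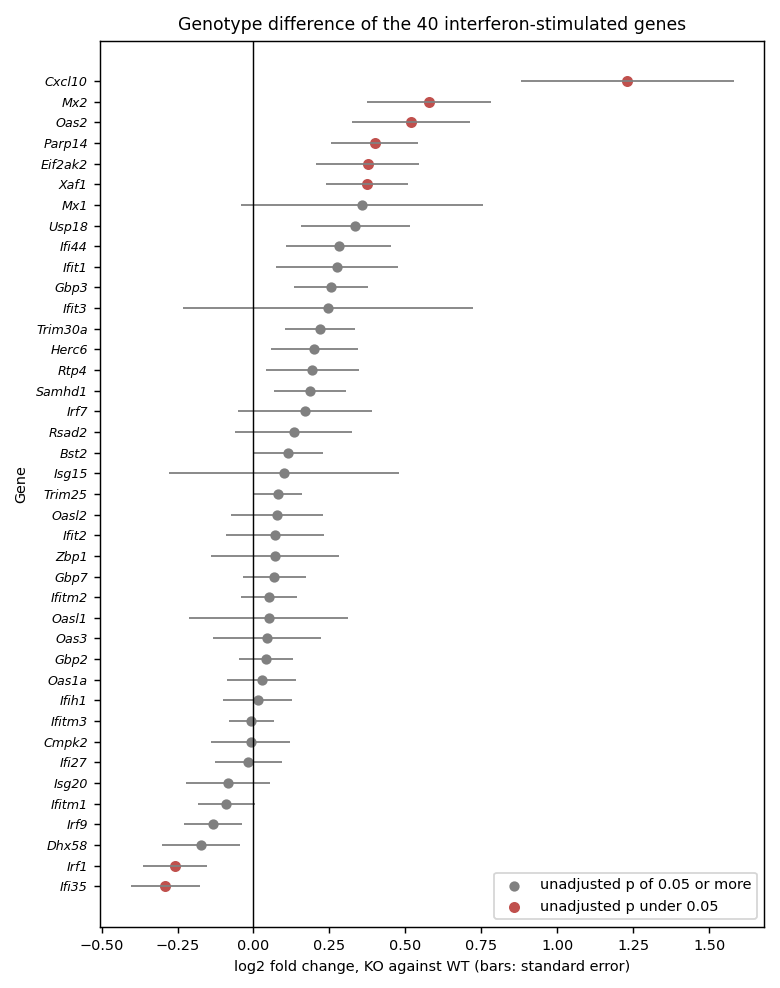
Log2 fold change of KO against WT (x axis) for each of the 40 interferon-stimulated genes (y axis, sorted), with points for the estimates, bars for their standard errors, and red points for an unadjusted p under 0.05. Cxcl10 lies at 1.23, the other members between -0.29 and 0.58, and none was called after adjustment.

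Cxcl10 had the largest estimate of the members. It encodes a chemokine that attracts T cells through Cxcr3 and lies on chromosome 5 from 92346638 to 92348889. Its level was 15.4, 9.60, 5.00, 21.7 and 9.19 CPM in WT1 to WT5 and 31.9, 26.5, 26.5, 15.6 and 42.4 CPM in KO1 to KO5. All KO libraries except KO4 exceeded the highest WT library, WT4, and KO4 lay within the WT range. The means were 12.2 ± 6.48 and 28.6 ± 9.74 CPM (SD, n = 5 each), and the log2 fold change was 1.23 (SE 0.35, adjusted p = 0.162, quasi-likelihood F test). The Wald test of DESeq2, the kind of test the study used, gave a log2 fold change of 1.24 and an adjusted p of 0.0370. The call therefore depended on the test. Counts were between 17 and 184 per library. An exon of Art3 overlaps Cxcl10 on the opposite strand, and reads of both genes could be counted together if strand was not used, which the sources do not state.

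Among the Ifit and Mx genes, which encode proteins that bind viral RNA and GTPases that trap viral nucleocapsids, all 5 estimates were above 0, between 0.07 and 0.58. Mx2 (chromosome 16, 97535308 to 97560900) was 14.0, 13.1, 12.1, 12.4 and 15.5 CPM in WT1 to WT5 and 23.5, 17.1, 21.0, 15.6 and 23.0 CPM in KO1 to KO5. Every KO library was above every WT library, though KO4 and WT5 almost touched. The means were 13.4 ± 1.40 and 20.1 ± 3.57 CPM (SD, n = 5 each), with a log2 fold change of 0.58 (SE 0.20, adjusted p = 0.265, quasi-likelihood F test). Its neighbour Mx1 was 24.1, 19.7, 17.1, 22.2 and 2.84 CPM in WT1 to WT5 and 29.5, 26.5, 19.1, 18.8 and 15.4 CPM in KO1 to KO5. WT5 had 13 counts of Mx1 and stood far below the other libraries of both genotypes, while its Mx2 was the highest in WT. The standard error of Mx1 was accordingly 0.40 around a log2 fold change of 0.36. C57BL/6 mice carry Mx alleles that yield no working antiviral protein, so these genes are readouts of induction in this strain.

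Ifit1 and Ifit3 lie beside Ifit2 on chromosome 19 between 34550694 and 34650009. Ifit1 was 71.6, 110, 74.1, 144 and 76.6 CPM in WT1 to WT5 and 140.0, 126, 88.2, 88.8 and 135 CPM in KO1 to KO5. WT4 was the highest of all 10 libraries, and the lowest KO libraries lay inside the WT range, with a log2 fold change of 0.28 (SE 0.20, adjusted p = 0.615, quasi-likelihood F test). It was 0.36 without the library labelled KO3. Ifit3 was 11.04, 15.4, 5.00, 40.9 and 10.7 CPM in WT1 to WT5 and 21.2, 32.9, 7.56, 19.1 and 18.4 CPM in KO1 to KO5. WT4 held 3.88 times the mean of the other WT libraries, and the highest WT library exceeded the lowest by 8.19-fold, against 4.35-fold in KO. The log2 fold change of Ifit3 was 0.25 with an SE of 0.48, and reads shared with its near-identical copy Ifit3b could be split in counting. Ifit2 was 92.8 ± 15.9 and 97.7 ± 22.4 CPM (SD, n = 5 each).

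**Figure D2:**
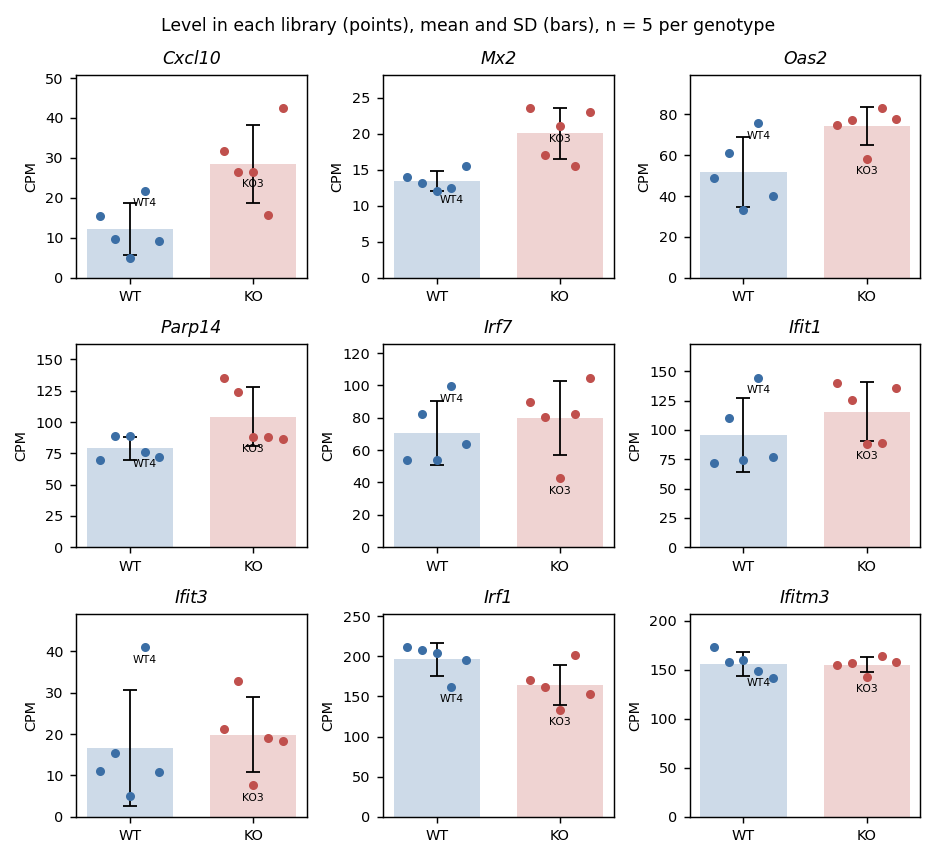
Level in CPM (y axis) of 9 interferon-stimulated genes in each of the 5 WT and 5 KO libraries (points), with bars for the mean and whiskers for the SD, and WT4 and the library labelled KO3 named. For Mx2 the KO points lie above the WT points, and for Ifit3, Ifit1, Irf7 and Oas2 WT4 is the highest WT point and KO3 the lowest KO point.

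The oligoadenylate synthases sense double-stranded RNA and activate RNase L. All 5 estimates were above 0, between 0.03 and 0.52. Oas2 was 48.8, 61.1, 32.9, 75.6 and 40.04 CPM in WT1 to WT5 and 74.6, 77.4, 58.1, 82.9 and 77.9 CPM in KO1 to KO5. Apart from the library labelled KO3, the KO libraries lay close together, and in WT only WT4 reached them. The means were 51.7 ± 17.0 and 74.2 ± 9.46 CPM (SD, n = 5 each), with a log2 fold change of 0.52 (SE 0.19, adjusted p = 0.291, quasi-likelihood F test), and 0.59 without the library labelled KO3. Oas1a and Oas3 lie beside Oas2 on chromosome 5 and had log2 fold changes of 0.03 and 0.04. Oasl1, a relative that in mice represses translation of Irf7, was 23.1, 31.6, 12.1, 29.7 and 18.2 CPM in WT1 to WT5 and 29.5, 23.0, 15.4, 23.8 and 27.2 CPM in KO1 to KO5. WT3 and the library labelled KO3 were the lowest of their genotypes, and the groups overlapped almost fully (log2 fold change 0.05). Oasl2 had a log2 fold change of 0.08.

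Isg15 is a ubiquitin-like protein that is attached to other proteins during the response, Herc6 is its ligase in mice, and Usp18 removes it and also dampens signalling from Ifnar2. Isg15 was 10.7, 11.1, 5.88, 13.2 and 11.4 CPM in WT1 to WT5 and 12.4, 7.92, 7.09, 6.47 and 22.1 CPM in KO1 to KO5. The KO libraries spread over 3.42-fold, from KO4 to KO5, and KO5 alone lay above the WT libraries while the others lay within their range, with a log2 fold change of 0.10 and an SE of 0.38. Usp18 was 66.2, 69.2, 48.2, 69.0 and 43.3 CPM in WT1 to WT5 and 65.4, 83.9, 49.9, 87.6 and 86.6 CPM in KO1 to KO5. KO2, KO4 and KO5 exceeded all WT libraries, while KO1 and the library labelled KO3 did not, and the log2 fold change was 0.34 (SE 0.18, adjusted p = 0.460, quasi-likelihood F test). Without the library labelled KO3 it was 0.45 (adjusted p = 0.290, same test). Herc6 and Trim25, a ubiquitin ligase of the RNA sensor pathway, had log2 fold changes of 0.20 and 0.08.

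The 3 transcription factors of the list did not share a direction. Irf7, which amplifies the response and is itself induced by it, was 54.2, 82.6, 54.1, 99.4 and 63.9 CPM in WT1 to WT5 and 89.6, 80.6, 42.5, 82.0 and 104.6 CPM in KO1 to KO5. Its extremes were WT4 at the top of WT and the library labelled KO3 at the bottom of all 10 libraries. The log2 fold change was 0.17 (SE 0.22, adjusted p = 0.794, quasi-likelihood F test), and 0.33 without that library (adjusted p = 0.521, same test). Irf9, the DNA-binding partner of Stat2, was 194, 197, 157, 183 and 165 CPM in WT1 to WT5 and 166, 176, 129.8, 176 and 169 CPM in KO1 to KO5. KO1, KO2, KO4 and KO5 lay inside the WT range and the library labelled KO3 below it, with a log2 fold change of -0.13. Irf1, which responds to interferon gamma as well, was 211, 208, 204, 162 and 195 CPM in WT1 to WT5 and 170.2, 162, 134, 202 and 153 CPM in KO1 to KO5. KO4 reached the WT libraries and WT4 lay among the KO libraries. The log2 fold change of Irf1 was -0.26 (SE 0.11, adjusted p = 0.335, quasi-likelihood F test), and -0.19 without the library labelled KO3 (adjusted p = 0.495, same test). Exons of Phrf1 overlap Irf7 and those of Gm17334 overlap Irf1 on the opposite strand, and exons of Rnf31 overlap Irf9 on the same strand.

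Among the sensors, Eif2ak2, a kinase that arrests translation when it binds double-stranded RNA, was 78.9, 118, 109, 106 and 115 CPM in WT1 to WT5 and 155, 162, 130.2, 79.1 and 158 CPM in KO1 to KO5. KO1, KO2, KO5 and the library labelled KO3 exceeded all WT libraries, and KO4 lay beside WT1 at the bottom of the range. The means were 105 ± 15.5 and 137 ± 34.6 CPM (SD, n = 5 each), with a log2 fold change of 0.38 (SE 0.17, adjusted p = 0.378, quasi-likelihood F test). The RNA sensors Ifih1 and Dhx58 and the sensor of left-handed nucleic acids Zbp1 had log2 fold changes of 0.01, -0.17 and 0.07.

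The membrane restriction factors had the lowest median SD within genotypes of the groups of members, 0.14 on the log2 CPM scale. Per kilobase of gene length, Ifitm3, Ifitm2 and Ifitm1 had the highest mean levels of the 40 members, 240.3, 202 and 192 CPM per kilobase, ahead of Ifi27 at 112 and Bst2 at 84.2, and Mx2, Mx1 and Ifit3 had the lowest, 6.91, 7.24 and 9.12. The Ifitm proteins block entry of enveloped viruses. Ifitm3 was 173, 158, 160, 149 and 141 CPM in WT1 to WT5 and 155, 157, 143, 164 and 158 CPM in KO1 to KO5. The KO values lay inside the WT range, and the means were 156 ± 11.9 and 155 ± 7.69 CPM (SD, n = 5 each). Its log2 fold change was -0.01 with an SE of 0.07, the smallest standard error of the members. Ifitm1 was 203, 153, 176, 149 and 152 CPM in WT1 to WT5 and 163, 165, 142, 153 and 159 CPM in KO1 to KO5. Ifitm2 was 142, 123, 134, 109 and 114 CPM in WT1 to WT5 and 129, 139, 112, 136 and 129.96 CPM in KO1 to KO5. WT1 was the highest library for all 3 genes, and WT1 has the smallest total. These genes reached up to 1.06 counts per base of length, where 46 of 26146 genes exceeded 1 count per base in any library, and the counts of Ifitm1 stayed between 519 and 695 in libraries of all sizes. The sources do not state whether duplicate reads were removed, and the part of this in the narrow spread was not tested. Bst2, which tethers budding viruses to the cell, was 72.9, 60.4, 59.7, 59.5 and 58.9 CPM in WT1 to WT5 and 65.6, 58.1, 63.6, 69.7 and 79.5 CPM in KO1 to KO5. WT1 stood above the other WT libraries, among the KO values, and the log2 fold change was 0.11.

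Rsad2 (viperin), which makes a chain-terminating nucleotide, was 53.8, 89.4, 72.9, 118 and 95.6 CPM in WT1 to WT5 and 107, 114, 63.1, 98.2 and 91.3 CPM in KO1 to KO5. The genotypes overlapped over nearly the whole range, with WT4 highest of all. The log2 fold change was 0.13, and its neighbour on chromosome 12, the nucleotide kinase Cmpk2, had -0.01. The nucleotide hydrolase Samhd1 and the exonuclease Isg20 had 0.19 and -0.08. Of the guanylate-binding GTPases, which attack the compartments of intracellular pathogens, Gbp2 was 183, 200.1, 190, 210 and 181 CPM in WT1 to WT5 and 223, 224, 171, 202 and 173 CPM in KO1 to KO5. KO1 and KO2 lay above the WT libraries and KO5 and the library labelled KO3 below them, with a log2 fold change of 0.04. Gbp3 and Gbp7, next to Gbp2 on chromosome 3, had 0.26 and 0.07. Members of this family resemble each other, and reads could be split between copies.

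Ifi35 had the lowest estimate of the members. It was 88.3, 86.4, 85.5, 95.3 and 69.4 CPM in WT1 to WT5 and 64.9, 66.1, 62.2, 83.2 and 71.2 CPM in KO1 to KO5. WT5 lay among the KO libraries and KO4 close to the WT libraries. The means were 84.98 ± 9.54 and 69.5 ± 8.33 CPM (SD, n = 5 each), with a log2 fold change of -0.29 (SE 0.11, adjusted p = 0.313, quasi-likelihood F test). Without the library labelled KO3 the log2 fold change was -0.25. Exons of Gm11626 overlap Ifi35 on the opposite strand. Xaf1, a pro-apoptotic antagonist of Xiap, was 43.5, 52.5, 46.4, 61.2 and 53.2 CPM in WT1 to WT5 and 68.5, 52.2, 64.1, 67.9 and 80.7 CPM in KO1 to KO5. Only KO2 lay within the WT range, and the log2 fold change was 0.37 (SE 0.14, adjusted p = 0.276, quasi-likelihood F test). Parp14, an ADP-ribosyltransferase, was 69.9, 88.9, 88.8, 76.0 and 71.8 CPM in WT1 to WT5 and 135, 124, 87.9, 88.2 and 86.2 CPM in KO1 to KO5. KO1 and KO2 carried the difference, and the other KO libraries lay at the top of the WT range, with a log2 fold change of 0.40 (SE 0.14, adjusted p = 0.270, quasi-likelihood F test). Without the library labelled KO3 the estimate was 0.45. Ifi27 was 116, 131, 114, 128 and 104 CPM in WT1 to WT5 and 123, 110.1, 91.0, 126 and 138 CPM in KO1 to KO5. The groups overlapped, with the library labelled KO3 lowest, and the log2 fold change was -0.02. Ifi44, Trim30a and Rtp4 had log2 fold changes of 0.28, 0.22 and 0.19.

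Mice of the same genotype differed in many members at once. WT4 was the highest WT library for 20 of the 40 members (50%), against 18.1% of all tested genes, and WT3 was the lowest for 19 (47.5%, against 18.9%) and the highest for 0. Among the KO libraries, the library labelled KO3 was the lowest for 28 of the 40 (70%, against 20.4%) and lay above the KO median for 0, while KO2 and KO5 were each the highest for 12. As mean deviations from the own genotype on the log2 CPM scale, the members were at -0.02, 0.13, -0.23, 0.25 and -0.13 in WT1 to WT5 and at 0.14, 0.09, -0.31, -0.03 and 0.11 in KO1 to KO5. The extreme libraries of a genotype lay 0.48 apart in WT and 0.45 apart in KO, beside a median log2 fold change of 0.09 between the genotypes. The lower extreme in KO was the library labelled KO3, and the other KO libraries lay between -0.03 and 0.14. Without that library the median log2 fold change of the members was 0.19. The library labelled KO3, whose Cited2 was 120.1 CPM, was the lowest of the 10 for the summed level of the members (3646 CPM), and WT3, whose Cited2 was 162 CPM, was next (3716 CPM). The summed level was 4169 ± 389 CPM in WT and 4478 ± 487 CPM in KO (SD, n = 5 each). Without the library labelled KO3 the KO mean was 4686 CPM, and the difference between the genotypes was 517 CPM in place of 309 CPM. Whether the Cited2 level of the library labelled KO3 bears on its low members was not tested.

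**Figure D3:**
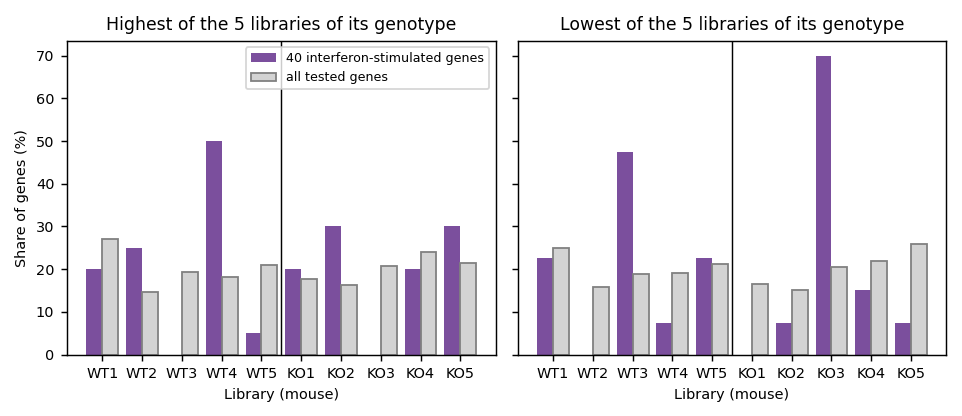
Share of genes (y axis, percent) for which each library (x axis) was the highest (left) or the lowest (right) of the 5 libraries of its genotype, for the 40 interferon-stimulated genes (purple) and for all tested genes (grey). WT4 is the highest WT library for 50% of the members, and KO3 the lowest KO library for 70%.

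A single component held 58.6% of the variance of the members within WT and 52.7% within KO, against 33.1% and 48.0% over all tested genes. The KO comparison turned with the setting, with 52.7% for the members against 53.2% for all genes at a prior count of 0.5, and 52.3% against 34.2% among genes with at least 10 counts in every library. The SD within genotypes was between 0.09 (Ifitm3) and 0.91 (Ifit3) on the log2 CPM scale, with a median of 0.22, and the median of the 10342 tested genes in the members' range of levels was also 0.22. Likeness to the mean of the other members was measured by Pearson's r over the 10 libraries after removal of the genotype means, as a description, since the libraries share depth and composition. It was highest for Rtp4, a chaperone that restricts viruses (r = 0.98), Oasl1 (0.92), Zbp1 (0.91), Irf7 (0.90), Ifit3 (0.88), Oas2 (0.87) and Ifit1 (0.86). It was near 0 for Mx2 (-0.03), Ifitm1 (-0.03), Irf1 (-0.01), Ifitm2 (0.03) and Bst2 (0.09), and low for Eif2ak2 (0.18), Ifitm3 (0.21) and Parp14 (0.28). Of the 6 members higher in KO at an unadjusted p under 0.05, Cxcl10 had an r of 0.56 and Xaf1 of 0.36, between Oas2 at the top and Parp14, Eif2ak2 and Mx2 below.

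**Figure D4:**
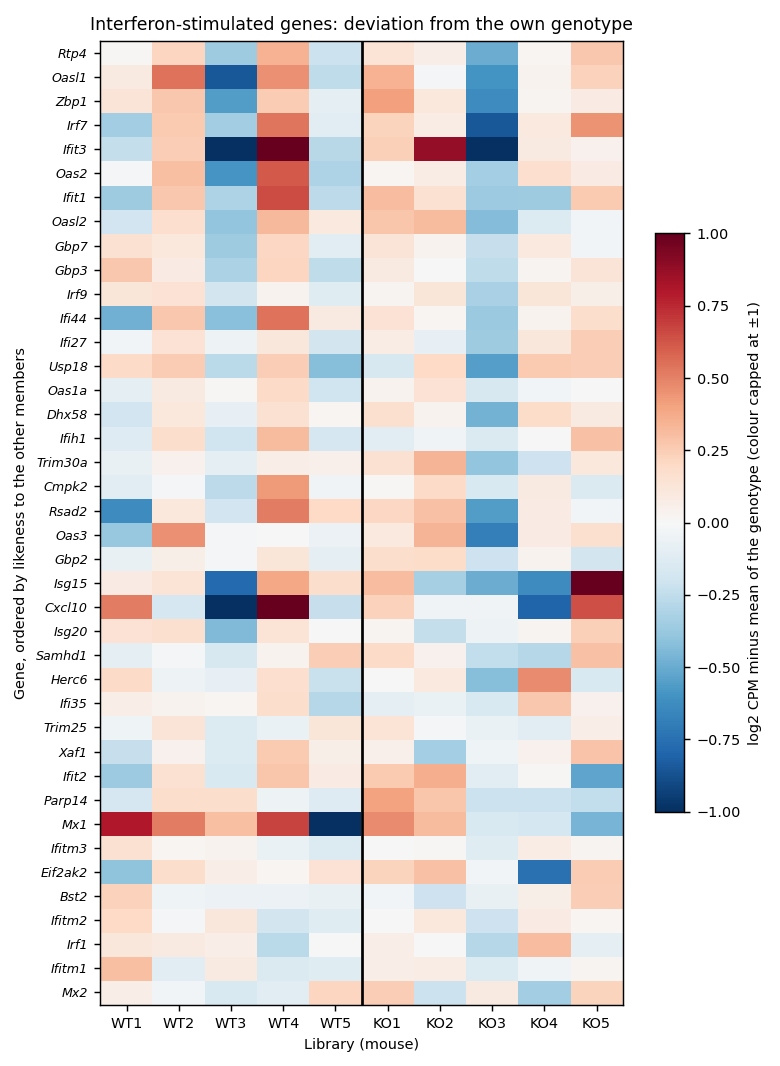
Deviation of log2 CPM (without a prior count) from the mean of the own genotype in each library (x axis) for the 40 interferon-stimulated genes (y axis, ordered by likeness to the mean of the other members), with colour capped at a deviation of 1. WT3 and KO3 are blue and WT4 is red for most genes in the upper rows, and the pattern fades in the lower rows, from Mx1 to Mx2.

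Of the 14125 other tested genes, the 10 most like the mean of the members were Apol9b (r = 0.97), Ripply3 (0.96), 4930555A03Rik (0.95), Zbtb14 (0.91), Dusp22 (0.91), Selp (0.90), Phf11d (0.90), Clca3a1 (0.90), Smap2 (0.90) and Rab29 (0.90). Apol9b and Phf11d belong to a list of 81 further interferon-stimulated genes written by hand, of which 74 were tested. The median r of those 74 was 0.48, against -0.03 over all 14125, and 11 of them and 284 of all had an r above 0.7. Selp, which encodes P-selectin, was among the genes called higher in KO (log2 fold change 1.61, adjusted p = 0.00727, quasi-likelihood F test). The library labelled KO3, with Cited2 within the WT range, had the lowest mean deviation of the members (-0.31) and entered every r. A difference between it and the other KO libraries therefore also raises r, here and for the members above. No r was computed without it.

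The rest of the pathway was examined in lists written by hand. None of the 21 interferon ligand genes passed the filter on low counts. Of these, 3 had 0 counts in every library and the others at most 10 counts in any library. Differences in their transcripts were therefore not detectable at these totals of counted reads. Of the receptor and signalling genes, 18 were tested, 0 were called, and 9 estimates lay on either side of 0. At an unadjusted p under 0.05, Ifnar2 and Ptpn2, a phosphatase of the pathway, were higher (log2 fold changes 0.34 and 0.24) and Stat3 lower (-0.22). Of all tested genes, 51% lay above 0, and 5.8% were higher and 7.08% lower at that p. Ifnar2 was 99.3, 120.0, 126, 115 and 146 CPM in WT1 to WT5 and 175, 181, 139, 134 and 139 CPM in KO1 to KO5. KO1 and KO2 lay above all WT libraries and the other 3 within the WT range (adjusted p = 0.251, quasi-likelihood F test). Ifnar1 and Stat2 had log2 fold changes of -0.10 and -0.17.

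Of the genes of nucleic acid sensing and interferon induction, 18 were tested, 0 were called, 6 lay above 0 and 12 below it. At an unadjusted p under 0.05, 1 was higher, against 5.8% of all tested genes, and 4 were lower, against 7.08%. Ikbke, a kinase that activates Irf3 and Irf7, was 69.9, 61.1, 60.6, 43.6 and 63.7 CPM in WT1 to WT5 and 38.7, 38.6, 49.4, 39.4 and 36.4 CPM in KO1 to KO5. The library labelled KO3 was the highest KO library and the only one above WT4, and the log2 fold change was -0.56 (SE 0.14, adjusted p = 0.118, quasi-likelihood F test). Mavs, the mitochondrial adaptor of the RNA sensors, had a log2 fold change of -0.45, and the DNA sensor Aim2 had 0.31. Of the 74 further interferon-stimulated genes tested, 0 were called, 42 lay above 0 and 32 below it, with a median of 0.07. At an unadjusted p under 0.05, 8 were higher and 4 lower, among them Phf11b (0.57), Nampt (0.28) and Tap2 (-0.35). This list and that of the signalling genes share members, Stat2 among them.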

How the data were processed

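RNA of sorted HSCs from 5 WT and 5 KO mice was sequenced. Per the labels and the study's methods, the authors used HISAT2 to place single-ended reads on GRCm38 and Rsubread to count them, and deposited read counts per gene symbol, not normalized, with gene lengths in bases. The annotation, use of strand, treatment of reads with several matches and removal of duplicates are not given in the sources used here. Samples were grouped by their titles, and replicates are separate mice. Totals of 3058690 to 4548795 counts per library set the precision, which is low for genes with few reads. The study's methods give far more sequenced reads per sample than these totals, and the sources used here do not say why.

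The members and gene lists were chosen with earlier results of these data known. Counts were fitted across all genes in R 4.3.3 with edgeR 4.0.16 (filterByExpr, TMM, robust quasi-likelihood F test, Benjamini-Hochberg adjustment over all 14165 tested genes). A gene was called at an adjusted p under 0.05 with a fold change above 20%. The common biological coefficient of variation was 25.3%. Covariation used log2 CPM with a prior count of 2 minus the mean of the genotype. Genes named with the value of each library were those with an unadjusted p under 0.05, the 8 with the largest SD within genotypes, the 6 with the highest level per length, and a fixed set of standard members. Of the other lists, the 3 genes with the smallest p were named, with the receptors and Stat2. A gene of these lists that enters their counts is not reported here by name. Ms4a6c, Lyz2, Vcam1, Cd48, Flt3, Il7r, Adgre1, C1qa, Csf1r and Cd14 were named after their values were seen. Positions and overlaps came from the GENCODE annotation of GRCm38, and promoters from RefSeq.

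Alternatives were DESeq2 1.42.0 (Wald test), its size factors in edgeR, no filter, at least 10 counts in every library, limma-voom (limma 3.58.1), an offset for the GC content and length of genes (loess, span 50%), the replicate number as a block, and each library left out. The code was tested on simulated data. The labels number the libraries 1 to 5 in both genotypes, but nothing says that equal numbers share a litter or day.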

Additional observations from a re-analysis of the deposited data

Results flagged for a closer look

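In the 46 groups of 5 libraries examined (23 members in 2 genotypes), the highest or lowest library stood apart from the other 4 in 7 groups by Dixon's test at the 95% level. Chance flags about 1 in 20 groups that are independent and unselected. These groups are neither, since members varied together and 8 were named for their large SD, so the count cannot be set against that rate. The deleted gene Cited2 was flagged as well, with 120.1 CPM in the library labelled KO3 against 3.80 to 8.30 CPM in the other KO libraries. In the same library Irf7 was 42.5 CPM against 80.6 to 104.6 CPM, and Irf9 was 129.8 CPM against 166 to 176 CPM. In WT5, Mx1 was 2.84 CPM against 17.1 to 24.1 CPM in the other WT libraries. In WT3, Isg15 was 5.88 CPM against 10.7 to 13.2 CPM. In WT4, Irf1 was 162 CPM against 195 to 211 CPM. The flags of Irf1 and Irf7 were borderline, with a gap of 0.7101 of the range each at a critical value of 0.71. In WT1, the smallest library, Eif2ak2 was 78.9 CPM against 106 to 118 CPM and Bst2 was 72.9 CPM against 58.9 to 60.4 CPM.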

How the results depend on the processing

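Over all settings tried, 0 members were called except with the Wald test of DESeq2. That Wald test called 1 of the 40 members, Cxcl10 (log2 fold change 1.24, adjusted p = 0.0370). Of the 14165 genes tested, it called 148 higher and 177 lower. The log2 fold changes of 11 members recomputed under 18 alternatives each kept their sign. That of Cxcl10 was between 1.03 and 1.55, with an adjusted p between 0.0370 and 0.504. An offset for the GC content and length of genes left 5 genes higher and 3 lower called and 4 members with an unadjusted p under 0.05. For the alternatives and the left-out libraries, the share of all genes at that p was not computed. Such an offset can also remove a genotype effect that follows GC content or length. With the GC content and length trends removed, the first component held 60.6% of the members' variance in KO, against 45.4% over all tested genes. In WT it held 59.6%, against 33.5%. With at least 10 counts in every library, 0 members were without overlap between the genotypes, against 3.79% of all genes.

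With each library left out in turn, 5 to 27 genes were called higher and 3 to 18 lower. Of the members, 25 to 34 had a log2 fold change above 0, against 49.8% to 50.9% of all tested genes. Their median was between 0.04 and 0.19, against -0.001 to 0.006 over all tested genes, and 5 to 10 had an unadjusted p under 0.05. From 1 to 3 members were without overlap, against 4.13% to 6.16% of all genes in these settings and 3.33% with all libraries. The called genes numbered 27 higher and 15 lower without the library labelled KO3. They numbered 8 and 8 without WT1, 8 and 3 without WT2, 9 and 7 without WT3, 7 and 3 without WT4, 5 and 3 without KO2, and 7 and 7 without either KO1 or KO5. The members' median was 0.14 without WT2, 0.16 without WT4, 0.06 without either KO1 or KO2, and 0.04 without WT3. The members without overlap were 2 without WT4, WT5, KO2 or KO3 (4.15% to 5.09% of all genes) and 3 without KO4 (6.16% of all genes), shares of the 40 that lie near those of all genes.

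Equal replicate numbers correlated between -0.09 and 0.21 in their deviations over all tested genes, and only WT5 correlated best with its own number. Whether equal numbers share a litter or day was not tested. With the replicate number as a block, 15 genes were called higher and 9 lower, with 31 members above 0 (against 49.5% of all genes) and 0 called. The GC and length offset with the replicate block gave 9 and 3, with 5 members at an unadjusted p under 0.05. The numbers of counts limit Ifit3, Isg15, Mx1 and Cxcl10 most, with 13 to 20 counts in their lowest libraries.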
